A study of Mus musculus with 42 samples.

Results

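Lungs taken after a single 1.0 Gy exposure to iron ions were compared with lungs of mice that were not irradiated. The comparison held 28 arrays of the 42 in the series: 15 lungs of the acute group and 13 control lungs. The acute mice (8 males and 7 females by label) received 1 exposure of 56Fe particles at 1.0 GeV per nucleon and were killed 70 days later, and the control mice (7 males and 6 females) received none. All were 129S2 mice of the K-rasLA1 line, so both groups shared the mutation that drives lung tumours in this line. No wild-type lungs entered the comparison. RNA came from the whole left lung, frozen in one piece, with any tumour, vessel, airway or attached tissue included, and 1 array was made per mouse. Replicate numbers were given here, in sample order within each group, and are not part of the labels. In such bulk tissue, fewer cells of a type and less RNA per cell cannot be told apart. The remaining 14 arrays, of lungs that had 5 exposures of 0.2 Gy, were not compared here. Ages were not used here.

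Iron ions deposit dense tracks of ionisation and leave clustered breaks in DNA. Cells answer such breaks through ATM and p53, which induces Cdkn1a, the inhibitor that halts the cell cycle, and Mdm2, the ligase that degrades p53. DNA that escapes into the cytoplasm can switch on interferon and, through it, a set of antiviral genes and the proteins that load peptides on MHC class I. Lung irradiation is also known for late inflammation and matrix deposition, and K-rasLA1 mice develop alveolar tumours through sporadic recombination of the mutant allele. The comparison asked which of these genes, and which others, differed in acute lungs at the single time sampled.

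Expression was read on Illumina BeadChips, and values are given as log2 signal after background correction and quantile normalization, so a difference of 1 is a doubling. Between 16264 and 18289 probes were detected per array. Probes entered the test if 13 or more of the 28 arrays gave a detection p below 0.01, which left 17182 probes, 14962 of them with 1 gene symbol, for 9974 genes. The lung was recognisable on the arrays: Sftpc, Sftpb, Ager, Scgb1a1, Pecam1 and Marco were detected on all 28 and Foxj1 on 25, while the liver gene Alb was detected on 0. Heart muscle Myh6 and Actc1 were also detected on all 28, and the fat hormone gene Adipoq on 22. The arrays lay on 7 slides, each holding both groups, and slide accounted for 42.1% of the first principal component against 0.0254% for the exposure. Slide and sex were therefore terms of every fit unless stated. Slide 5 held 3 acute lungs and 1 control lung, control replicate 9. With slide as a term, leaving out that control also takes the 3 acute lungs of slide 5 out of the comparison. The labels do not say whether mice shared a litter or cage.

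A pair of arrays stood apart. The female acute replicate 9 correlated with the median profile at 0.963, against 0.975 to 0.992 for the others, and it gave the highest or lowest value of 20 of the 47 gene lists described here. Acute replicate 14, labelled female, had 4.50 log2 signal of Xist, the transcript of the inactive X chromosome, against 9.80 to 10.72 in the other 12 arrays labelled female and 4.37 to 4.73 in males. Its Y-linked Eif2s3y was at 5.91, between the other females (4.41 to 4.97) and the males (8.09 to 9.28). Its Y-linked Kdm5d, at 4.60, lay within the other females (4.37 to 5.14) and below the males (5.35 to 6.51). Its sex label therefore goes against its Xist but not its Kdm5d, and results by sex below carry that limit.

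No probe differed between acute and control lungs after adjustment over all probes. In limma's moderated test with Benjamini-Hochberg adjustment, 0 of 17182 probes (0%) had an adjusted p under 0.05, and the smallest adjusted p was 0.479. At an unadjusted p under 0.05 there were 737 probes (4.29%), 468 higher (2.72%) and 269 lower (1.57%) in acute lungs, fewer than the 859 that chance gives on average. At an unadjusted p under 0.001 there were 9 probes, with 17 given by chance. The median difference over all probes was 0.0075 log2, and 53.4% of probes had an estimate above 0. With each array scaled by its median in place of quantile normalization, 74.6% lay above 0 and 92.3% of the probes at unadjusted p under 0.05 were higher, against 63.5% here, so the split between higher and lower estimates depended on the scaling. No probe had groups that did not overlap (0%).

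**Figure D1:**
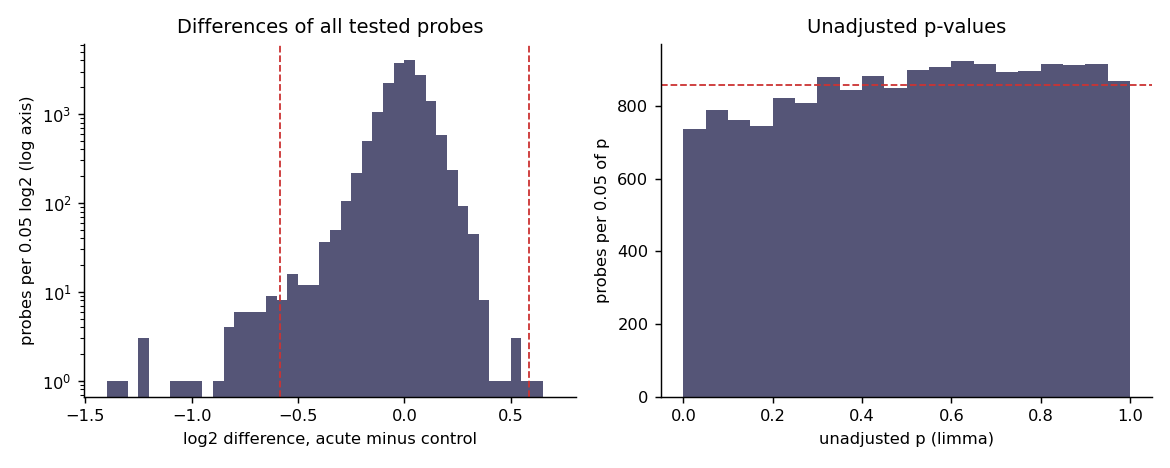
Left, the number of probes (log axis) by their log2 difference, acute minus control, in steps of 0.05, with dashed lines at a 1.5-fold difference. Right, the number of probes by unadjusted p from limma, with a dashed line at the 859 per step that chance gives on average. The first step on the right holds 737 probes and lies under the line.

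The arrays bounded most differences closely. The 95% interval of the difference lay within 1.5-fold either way for 16568 probes (96.4%), within 1.25-fold for 12506 (72.8%) and within 2-fold for 17019 (99.1%). The median standard error was 0.087 log2, set beside a median SD between lungs of 0.28 in the acute and 0.27 in the control group. An estimate past 1.5-fold was seen for 42 probes, 41 lower and 1 higher, and past 2-fold for 7, all lower. Those wide estimates came with wide intervals and are described further on.

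The smallest p belonged to Xpnpep1 on chromosome 19, which encodes a cytosolic aminopeptidase that trims peptides ending in X-Pro. Its log2 signal ran from 6.65 through a median of 6.97 to 7.31 in acute lungs, and from 7.13 through 7.31 to 7.60 in control lungs. All 15 acute lungs were below the control median and 12 were below the lowest control lung, although the groups overlapped. The difference was -0.35 ± 0.067 log2 (SE, n = 15 and 13, fold 0.786), with an adjusted p of 0.479 in limma. It was lower on all 7 slides and in 12 of 13 pairs of acute and control lungs matched for slide and sex. Such counts, here and for the other genes of smallest p, come from the same values that picked the genes and are no separate support. The 2 other Xpnpep1 probes differed by -0.23 and -0.030 log2. The one at -0.030 was the brightest, with a mean signal of 11.43 in acute and 11.48 in control lungs.

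Ccnq, a cyclin partner of the kinase Cdk10, had 5.32, 6.14 and 6.86 as its lowest, median and highest log2 signal in acute lungs, against 6.22, 6.44 and 6.91 in control lungs. Its difference was -0.38 ± 0.082 log2 (adjusted p = 0.957, limma). Its other probe was brighter, with a mean of 9.78 in acute and 9.72 in control lungs, and differed by 0.015. Nckap1, a subunit of the complex that drives actin branching at the cell edge, was tightly grouped in acute lungs, from 10.12 to 10.37 with a median of 10.23, against 10.18 to 10.87 with a median of 10.48 in control lungs. All acute lungs lay below the control median for Nckap1, and 10 control lungs lay above the highest acute one. The difference for Nckap1 was -0.23 ± 0.054 log2 (adjusted p = 0.9999, limma).

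Asph, an endoplasmic reticulum hydroxylase of aspartate, and Capn2, the large subunit of a calcium-dependent protease, were lower in the acute lung in all 13 matched pairs. Asph spanned 5.50 to 6.02 (median 5.65) in acute lungs, against 5.65 to 6.47 (median 5.94) in control lungs, a difference of -0.32 ± 0.076 log2. It lay close to background: the probe was detected on 6 of 15 acute and 11 of 13 control arrays, and the other 2 Asph probes differed by -0.048 and -0.079. Capn2 spanned 10.14 to 10.71 (median 10.53) in acute lungs, against 10.47 to 10.98 (median 10.70) in control lungs, a difference of -0.21 ± 0.066 log2. The 3 other Capn2 probes differed by 0.022, -0.081 and -0.12. Msl2, a subunit of a histone acetylation complex named after its values were seen, was also lower in all 13 pairs, with a difference of -0.23. Of all 17182 probes tested, 3 were lower in every pair. The other 5 genes of smallest p among the lower ones were Hbp1, a repressor of cell cycle genes (-0.24), Glud1, mitochondrial glutamate dehydrogenase (-0.25), Grk6, a kinase of G protein-coupled receptors (-0.31), Gpat3, an enzyme of triglyceride synthesis (-0.32), and Ubr7 (-0.14). The Gpat3 probe was detected on 8 of 15 acute and 11 of 13 control arrays. Other probes of these 5 genes gave smaller differences, from -0.15 for Grk6 to 0.026 for Ubr7. Every one of these had an adjusted p of 0.9999 in limma.

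Among genes with higher estimates, Bcas2, a splicing factor on chromosome 3, had the smallest p. It spanned 8.61 to 9.44 (median 9.12) in acute lungs, against 8.34 to 9.33 (median 8.87) in control lungs. Of the acute lungs 13 exceeded the control median, and the difference was 0.26 ± 0.059 log2 (fold 1.19). Araf, the X-linked Raf kinase that relays Ras signals to MEK, spanned 10.36 to 10.79 (median 10.50) in acute lungs, against 10.19 to 10.49 (median 10.32) in control lungs. All 15 acute lungs were above the control median for Araf and 10 were above the highest control lung, with a difference of 0.20 ± 0.049 log2 that was positive on 7 of 7 slides. The other 3 Araf probes differed by 0.12, -0.0030 and -0.069.

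Nol3, an inhibitor of caspase activation, spanned 5.95 to 6.95 (median 6.30) in acute lungs, against 5.63 to 6.46 (median 5.99) in control lungs, a difference of 0.35 ± 0.091 log2. All 5 of its other probes were also above 0, between 0.081 and 0.23. Cflar, the decoy that blocks caspase-8 at death receptors, spanned 8.03 to 8.75 (median 8.39) in acute lungs, against 7.72 to 8.57 (median 8.13) in control lungs, a difference of 0.28 ± 0.077 log2. These genes were picked out for their roles after their values were seen, and neither passed the adjustment (adjusted p = 0.9999, limma).

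Vhl, which marks the HIF transcription factors for degradation, was higher in the acute lung in all 13 matched pairs. It spanned 5.83 to 6.84 (median 6.59) in acute lungs, against 5.50 to 6.73 (median 6.14) in control lungs, and the difference was 0.30 ± 0.086 log2 (adjusted p = 0.9999, limma). The Vhl probe was detected on 15 of 15 acute and 10 of 13 control arrays. Ncbp2, a subunit of the nuclear cap-binding complex named after its values were seen, was also higher in all 13 pairs, with a difference of 0.18. Of all 17182 probes tested, 2 were higher in every pair. The remaining genes of smallest p were Trmt1l (0.24) and Ctu2 (0.25), both with roles in tRNA modification, Ddit4l, an inhibitor of mTOR signalling (0.33), and the interferon-induced genes Ifi27 (0.20) and Oasl2 (0.37). Across the 20 genes of smallest p the groups overlapped in each case.

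**Figure D2:**
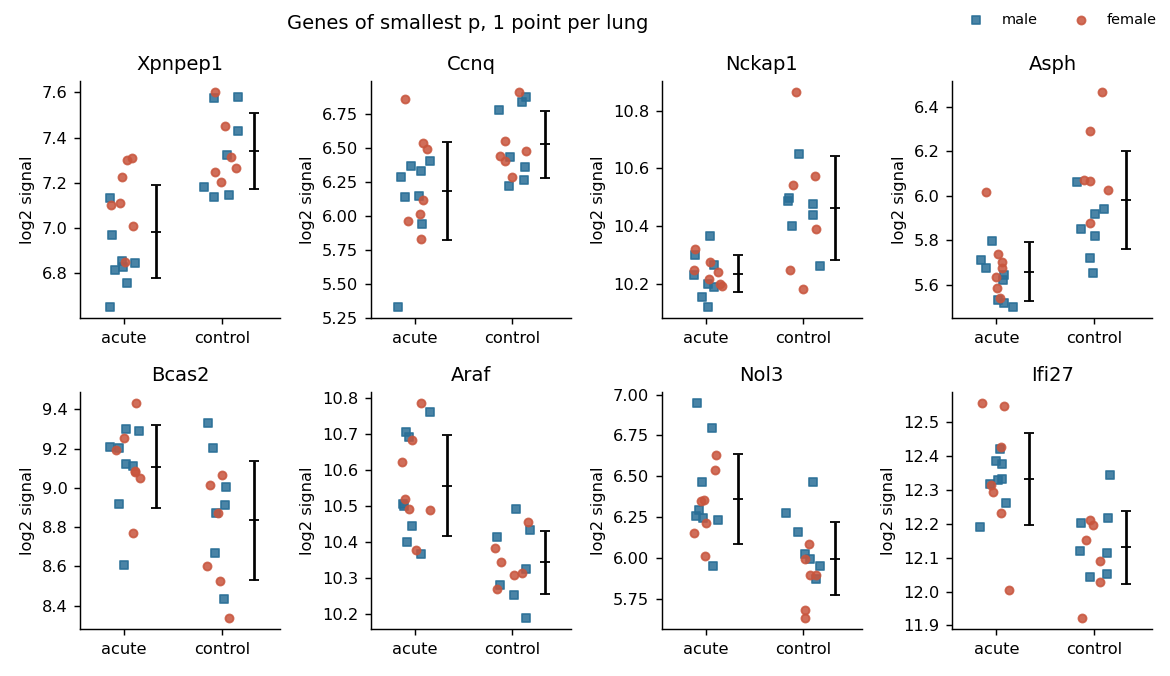
Log2 signal in each lung (squares male, circles female) for the 4 genes of smallest p with lower estimates (top) and the 4 with higher estimates (bottom), acute left of control. Black bars give the mean and SD of the group. For Araf, 10 acute lungs lie above the highest control lung, and for Xpnpep1, 12 lie below the lowest.

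The largest estimates came from genes that varied many-fold from lung to lung in both groups. Gkn2, a secreted gastrokine, spanned 4.52 to 11.24 log2 signal (median 6.97) in acute lungs, against 4.51 to 10.94 (median 8.60) in control lungs. The groups covered nearly the same range, and the difference of -1.31 ± 0.61 log2 (95% interval -2.58 to -0.040, adjusted p = 0.9999, limma) was negative in 7 of 13 matched pairs. Dlk1, a Delta-like protein of fat precursor cells, spanned 4.62 to 13.40 (median 9.02) in acute lungs, against 4.52 to 12.90 (median 10.23) in control lungs, a difference of -1.36 ± 0.88. Its estimate was -2.85 in males and 0.43 in females, and the interaction of sex with exposure had an adjusted p of 0.604.

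Car3, a carbonic anhydrase abundant in fat and muscle, spanned 4.49 to 11.14 (median 7.48) in acute lungs, against 4.52 to 12.24 (median 8.65) in control lungs, a difference of -1.08 ± 0.76 log2. That difference was -0.64 without control replicate 3, and it ran from -1.59 to -0.38 when 1 slide was left out. Cyp2e1, a cytochrome P450, spanned 7.71 to 11.84 (median 8.99) in acute lungs, against 7.77 to 12.88 (median 10.34) in control lungs. Here 13 of 15 acute lungs were below the control median, with a difference of -0.89 ± 0.43 (adjusted p = 0.9999, limma). Hamp, the iron hormone hepcidin, spanned 4.75 to 9.33 (median 7.59) in acute lungs, against 5.71 to 10.64 (median 8.22) in control lungs, a difference of -0.71 ± 0.37. Sox9, a transcription factor of distal lung progenitors, spanned 5.86 to 9.44 (median 6.67) in acute lungs, against 5.83 to 8.82 (median 7.68) in control lungs, a difference of -0.57 ± 0.30. The highest Gkn2 and Sox9 of the acute group both came from acute replicate 9.

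The only estimate past 1.5-fold upward was Atp2a1, the calcium pump of fast skeletal muscle, and 1 lung set it. Acute replicate 7 had 12.34 log2 signal, while the other acute lungs lay at or below 6.68 and the control lungs between 4.99 and 6.31. The difference was 0.61 ± 0.46 log2 with that lung and 0.099 without it. The fast muscle troponin Tnni2 reached 11.99 in the acute group, against a control maximum of 7.60. The next largest positive estimates were Rnase2a (0.55 ± 0.38), an eosinophil-associated ribonuclease, St6galnac3 (0.50 ± 0.17), a sialyltransferase, Cyp26b1 (0.40 ± 0.28), which degrades retinoic acid, and Iqgap1 (0.39 ± 0.13), a scaffold of the cytoskeleton. St6galnac3 was detected on 13 of 15 acute and 3 of 13 control arrays, with medians of 6.23 in acute and 5.60 in control lungs (adjusted p = 0.9999, limma). The 2 other Iqgap1 probes differed by 0.039 and 0.029.

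**Figure D3:**
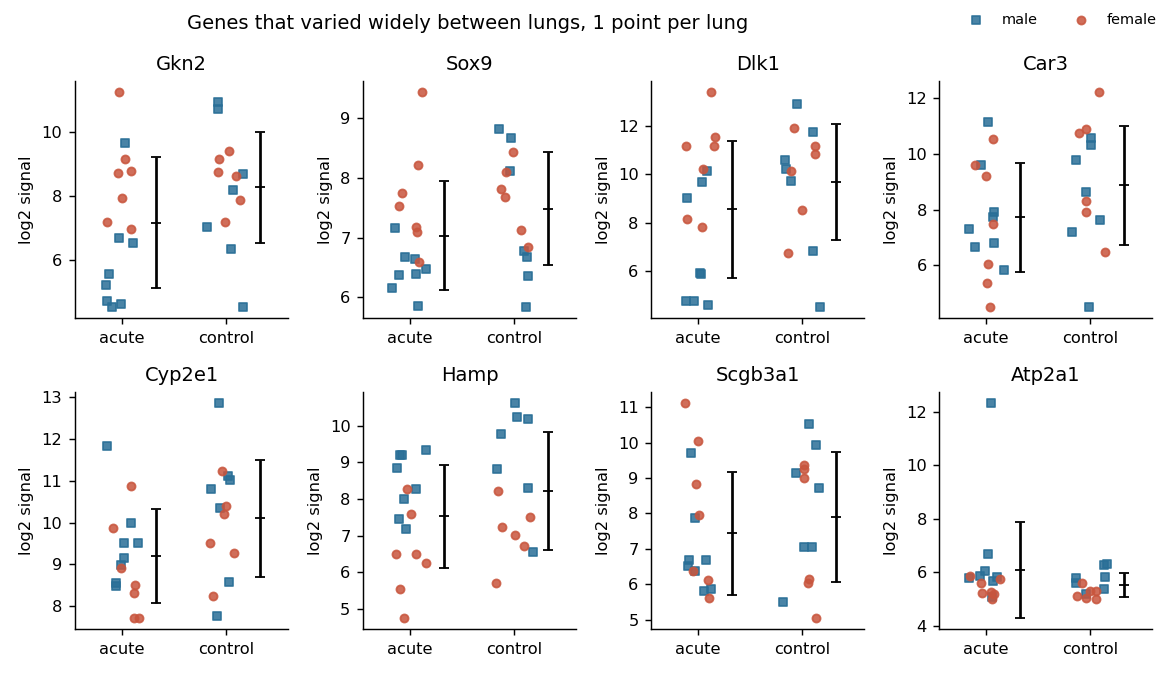
Log2 signal in each lung (squares male, circles female) for 8 genes that varied widely, acute left of control, with the mean and SD of each group in black. Gkn2, Sox9, Dlk1, Car3, Cyp2e1, Hamp and Scgb3a1 cover broad and overlapping ranges in both groups, and Atp2a1 is high in 1 acute lung at 12.34.

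Genes of the p53 response did not differ beyond the spread between lungs. Cdkn1a spanned 9.85 to 11.48 (median 11.01) in acute lungs, against 9.14 to 11.92 (median 10.87) in control lungs, and the acute range lay inside the control range. The difference was 0.11 ± 0.22 log2, with a 95% interval from -0.35 to 0.56, and its 2 other probes gave 0.097 and 0.10. For Mdm2 the interval was narrower: it spanned 10.65 to 11.34 in acute lungs, against 10.68 to 11.22 in control lungs, and the difference was -0.0001 ± 0.060 with an interval from -0.13 to 0.12. Of 22 p53 target genes tested, 13 had estimates above 0 and 9 below, where 55.7% of all genes were above 0, and the list median was 0.027 log2 beside 0.012 over all genes. In limma 0 of the 22 passed the adjustment, and 2 reached an unadjusted p under 0.05, where 3.76% of all genes did. Those 2 were Phlda3, an inhibitor of Akt, at 0.21 ± 0.090, and the death receptor Tnfrsf10b at -0.23 ± 0.097. Among 22 genes of DNA repair and damage checkpoints 17 were above 0 (median 0.044), with Brca2 at 0.21 ± 0.10, the checkpoint kinase Chek2 at 0.18 ± 0.098 and the glycosylase Ogg1, which removes oxidised guanine, at -0.19 ± 0.088. The 17 cell cycle genes had a median of 0.053 and the 15 senescence and secretory genes one of 0.016.

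Interferon-induced genes had the highest median of the 47 lists, though no member passed the adjustment. Of 24 tested members 19 had estimates above 0, and the median was 0.11 log2 beside 0.012 over all genes. At an unadjusted p under 0.05 there were 6 members, all higher. At that threshold were 3.76% of all genes in either direction, and 2.72% of all probes, counted singly, were higher. This list had been seen to lean upward in an earlier account of the same arrays, so its direction here is not independent evidence. Oasl2, an oligoadenylate synthetase-like protein that senses viral RNA, spanned 8.56 to 10.09 (median 9.25) in acute lungs, against 8.33 to 9.31 (median 8.85) in control lungs. It was higher in 12 of 13 matched pairs and on 7 of 7 slides, and 6 acute lungs exceeded the highest control lung, with a difference of 0.37 ± 0.11 (fold 1.29, adjusted p = 0.9999, limma).

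Bst2, the tetherin that holds budding virus at the membrane, spanned 8.16 to 9.87 (median 8.96) in acute lungs, against 7.69 to 9.50 (median 8.71) in control lungs, a difference of 0.32 ± 0.12 log2. Igtp and Gbp3, GTPases of the defence against intracellular parasites, differed by 0.25 ± 0.091 and 0.25 ± 0.11. Irf9, the DNA-binding subunit of the factor that type I interferon activates, spanned 9.38 to 9.78 in acute lungs, against 9.16 to 9.64 in control lungs, a difference of 0.12 ± 0.052. Lgals3bp, a secreted galectin-binding protein, differed by 0.18 ± 0.084. Other classical members were not separated: Isg15 was at 0.16, Irf7 at 0.14, Ifit3 at 0.11, Ifit2 at -0.047 and Rsad2 at -0.20, each with an interval that included 0. The Ifi27 probe of highest signal, which stands for the gene in the list, was at 0.075, below the 0.20 of its other probe. The list's median ran from 0.083 to 0.14 when single arrays were left out. It was 0.20 in males alone and 0.022 in females alone.

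The sequences that carry the interferon response element were looked up for the members, because type I interferon acts on genes through it. The motif searched was a pair of GAAA runs with any 2 bases between them, on either strand, in the 300 bases from 250 before to 50 after each RefSeq gene start. It was present for 10 of 19 list members that had a promoter in the table (52.6%) and for 307 of 8058 tested genes (3.81%). Igtp, Bst2 and Gbp3, members with an unadjusted p under 0.05, held it before their start sites, and Oasl2, Irf9 and Lgals3bp had no match in this window. The 60 bases around the match nearest the start are given on the strand of each gene (RefSeq, GRCm38.p6), with the 10 bases of the match in capitals.
Igtp (chr11:58199496-58199555, + strand): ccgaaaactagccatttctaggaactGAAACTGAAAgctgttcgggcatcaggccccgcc
Bst2 (chr8:71537562-71537621, - strand): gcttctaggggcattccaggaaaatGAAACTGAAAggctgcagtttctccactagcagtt
Gbp3 (chr3:142559980-142560039, + strand): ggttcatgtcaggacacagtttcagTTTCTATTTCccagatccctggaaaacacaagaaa
Igtp and Bst2 thus carried the same 10 bases, beginning 34 bases before the start in Igtp and 124 in Bst2. Gbp3 read the element on its other strand, beginning 39 bases before the start, and both Bst2 and Gbp3 held a further match that overlapped the one shown. These matches are a description of the sequence and not of binding.

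MHC class I presentation genes had 13 of 15 estimates above 0, with a median of 0.061 log2 and 2 members at an unadjusted p under 0.05, where 55.7% of all genes were above 0 and 3.76% were at that threshold. Psmb9, a catalytic subunit that the proteasome takes up under interferon, spanned 10.03 to 10.52 (median 10.26) in acute lungs, against 9.85 to 10.35 (median 10.09) in control lungs, and 14 of 15 acute lungs exceeded the control median. Its difference was 0.18 ± 0.057 log2. The class I heavy chain H2-K1 spanned 10.31 to 11.40 (median 10.89) in acute lungs, against 10.03 to 11.30 (median 10.55) in control lungs, a difference of 0.24 ± 0.098. H2-D1 was at 0.0034 and B2m, the shared light chain, at 0.011, and their differences from H2-K1 were not tested. Calr, a chaperone of the heavy chain, was at -0.17 ± 0.10. None was called by limma (adjusted p = 0.9999 for Psmb9 and H2-K1).

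**Figure D4:**
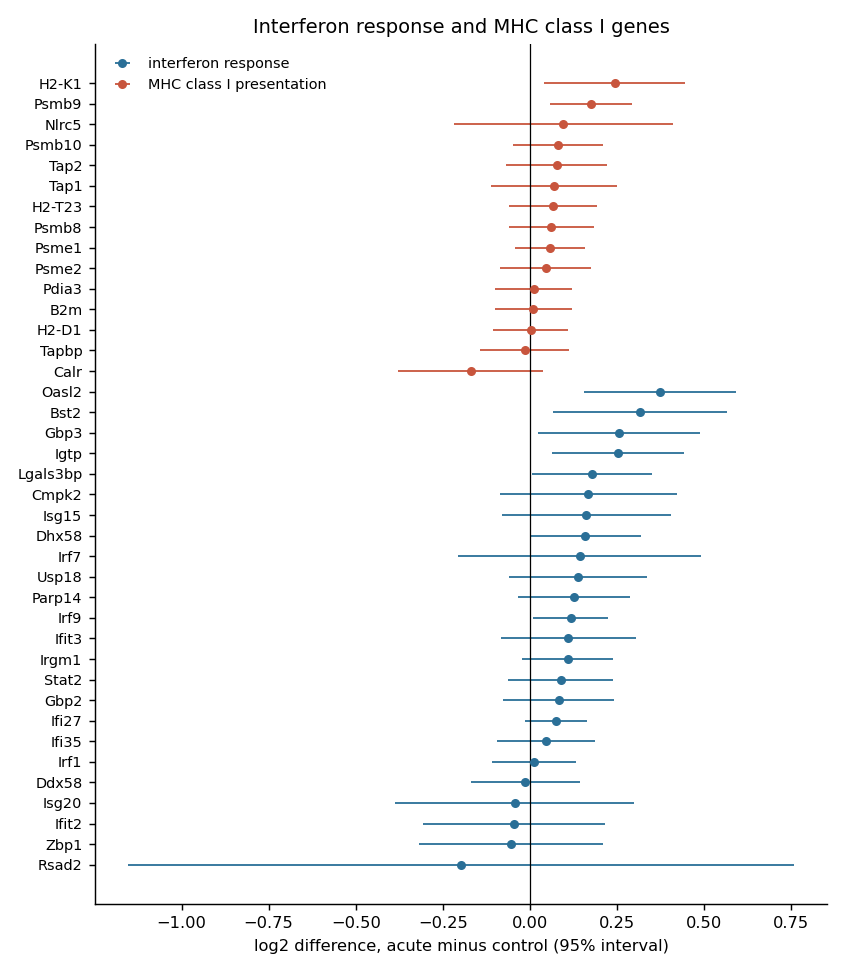
The log2 difference, acute minus control, with its 95% interval for each tested gene of MHC class I presentation (orange, upper block) and of the interferon response (blue, lower block). In the interferon block 19 of 24 points lie above 0, with Oasl2 the highest at 0.37.

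Markers of immune cells differed little in either direction. T and NK cell genes had 14 of 17 estimates above 0 (median 0.081 log2), with the protease Ctsw of cytotoxic cells at 0.30 ± 0.14, the pore-forming Prf1 at 0.20 ± 0.098 and the chemokine Ccl5 at 0.29 ± 0.17. Of these Ctsw alone had an unadjusted p under 0.05, at 0.049. Without control replicate 9, the only control on slide 5, the T and NK cell median was 0.027, and without acute replicate 1 it was 0.16. Dendritic cell genes had a median of 0.067 (6 of 8 above 0), macrophage and monocyte genes one of 0.0054 (13 of 21), chemokines and cytokines one of 0.032 (15 of 24), and MHC class II genes one of 0.029 (9 of 12). B and plasma cell genes were below 0 for 10 of 13 members, with a median of -0.081, and mast cell and basophil genes for 4 of 5. The dendritic cell median was 0.026 without control replicate 9, and so without the comparison on slide 5. Averaged over list members, acute replicate 9 had the highest level of macrophage and monocyte genes, 0.86 above the mean over lungs on the log2 scale. It also had the highest average of MHC class II genes, 0.76, and of chemokines and cytokines, 0.89. Without that lung those medians were -0.0016, 0.0064 and 0.0031.

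The lists of lung cell types were mostly balanced or slightly below 0. Alveolar type 2 genes, which make and package surfactant, were below 0 for 19 of 24 members with a median of -0.046 log2, and endothelial genes for 22 of 29 with a median of -0.053. Both medians turned positive under median scaling, to 0.043 and 0.022. Sftpc, surfactant protein C, spanned 14.20 to 15.02 (median 14.73) in acute lungs, against 14.53 to 15.05 (median 14.73) in control lungs, a difference of -0.050 ± 0.062. Scgb1a1, the club cell secretoglobin, differed by 0.041 ± 0.049, the endothelial adhesion molecule Pecam1 by -0.090 ± 0.11 at its probe of highest signal and the collagen chain Col1a1 by -0.094 ± 0.14. The 2 other Pecam1 probes went opposite ways, at 0.19 and -0.22. At its brightest probe Pecam1 reached its lowest value, 11.28, in the acute group, against a control minimum of 12.06. The endothelial, mesothelial and smooth muscle scores were each lowest in acute replicate 9, at -0.89, -1.01 and -0.75, and the endothelial median was -0.023 without it, 0.0060 without acute replicate 7 and -0.10 without acute replicate 8. Alveolar type 1 genes had a median of -0.013, ciliated cell genes 0.059, club and secretory genes -0.048, and fibroblast genes -0.021. Each of these 6 medians of lung cell types changed sign when some single lung was left out; for ciliated cell genes the median was -0.042 without control replicate 4 and 0.12 without control replicate 3.

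Genes of matrix, TGF-beta signalling and Ras output showed no shared difference. Of 23 extracellular matrix and fibrosis genes 15 were below 0 (median -0.045 log2), with Col18a1, the collagen that yields endostatin, at -0.21 ± 0.10. In the TGF-beta pathway the median was 0.014, and Smad6, an inhibitor of BMP signals, was at -0.37 ± 0.17. Smad6 was the only one of 19 members at an unadjusted p under 0.05, where 3.76% of all genes were. The 18 genes of Ras and MAP kinase output, which include the phosphatases that answer ERK activity, were split 9 and 9 with a median of 0.0005. Dusp6 spanned 11.92 to 12.55 in acute lungs, against 12.06 to 12.64 in control lungs, a difference of -0.066 ± 0.068, and Dusp4 was at -0.21 ± 0.16. The 19 genes of the Ras, Raf and MAP kinase pathway itself had a median of 0.0048. Araf was their only member at an unadjusted p under 0.05, beside the same 3.76% of all genes.

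The lowest medians belonged to muscle and fat. Heart and skeletal muscle genes were below 0 for 18 of 22 members, with a median of -0.22 log2, and adipose genes for 12 of 12, with a median of -0.21; none of these 34 was called or had an unadjusted p under 0.05. Myh6, the cardiac myosin that mouse pulmonary veins also express, spanned 8.05 to 11.67 (median 10.62) in acute lungs, against 8.83 to 12.26 (median 10.70) in control lungs, a difference of -0.37 ± 0.32. Cidec, a fat droplet protein, spanned 6.39 to 9.43 (median 7.26) in acute lungs, against 6.83 to 9.85 (median 7.80) in control lungs, a difference of -0.55 ± 0.31. Averaged over the list, muscle genes ran from -1.93 to 0.90 around the mean over lungs in the acute group. In the control group they ran from -1.44 to 1.59, so the groups overlapped almost wholly. The median lung stood at 0.34 in the acute and 0.092 in the control group, opposite in direction to the list's median difference. This average was higher in the acute lung in 7 matched pairs and lower in 6. On slides 3 to 5 alone the muscle and adipose medians were 0.052 and 0.015, while on the other 4 slides they were -0.40 and -0.32. The muscle median was -0.078 without acute replicate 1 and 0.21 without slide 1, so its sign rested on that slide. The adipose median was -0.13 without control replicate 3 and -0.10 without slide 1.

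Glucocorticoid-responsive genes were below 0 for 14 of 18 members with a median of -0.090 log2. Pdk4, the kinase that shuts pyruvate dehydrogenase in fasting, was at -0.44 ± 0.21 with 12 of 15 acute lungs below the control median, Fkbp5, a chaperone of the steroid receptor, at -0.27 ± 0.20 and Tsc22d3, the leucine zipper that steroids induce, at -0.17 ± 0.11. Without control replicate 9, the only control on slide 5, the median was 0.016, so its sign rested on that slide. Genes of oxygen sensing and HIF were below 0 for 17 of 21 members (median -0.079), among them Kdm3a (-0.13), Pdk1 (-0.11), Ndrg1 (-0.13) and Epas1 (-0.16), while Vhl at 0.30 and the hypoxia-induced carbonic anhydrase Car9 at 0.21 ± 0.12 lay above. Housekeeping machinery was close to 0, at medians of 0.013 for 37 ribosomal protein genes, 0.026 for 25 proteasome genes, 0.0011 for 34 complex I genes and -0.032 for 28 citrate cycle and mitochondrial carrier genes. The iron store protein Ftl1 spanned 13.48 to 14.17 (median 13.72) in acute lungs, against 13.29 to 13.99 (median 13.61) in control lungs, a difference of 0.15 ± 0.054. Over all 47 lists 24 medians lay above 0 and 23 below, and 29 of the 47 changed sign when some single lung was left out. In these lists 28 of 853 tested list genes had an unadjusted p under 0.05 where 3.76% of all genes did.

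**Figure D5:**
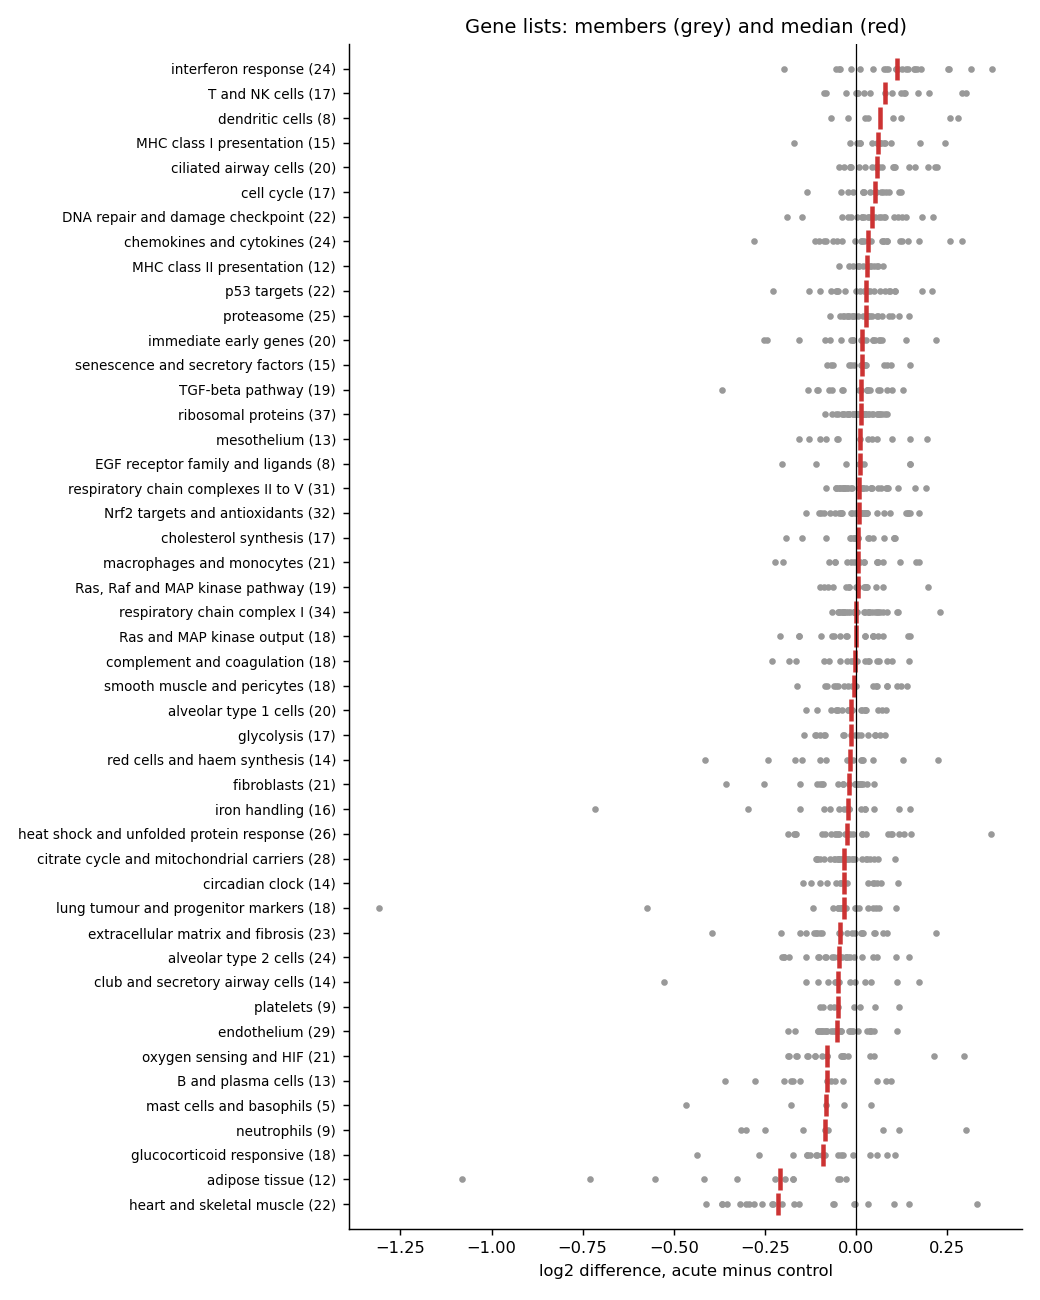
Log2 difference, acute minus control, of each tested member (grey points) and the median (red bar) of the 47 gene lists, sorted by median, with the number of tested members in brackets. Medians run from 0.11 for the interferon response to -0.22 for heart and skeletal muscle, and members lie on both sides of 0 in nearly every list.

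Whether the difference between acute and control lungs depended on sex was tested by the interaction. In limma 0 probes (0%) were called and the smallest adjusted p was 0.602. At an unadjusted p under 0.05 there were 1391 probes (8.10%), above the 859 that chance gives on average. The interaction count went to 2741 without acute replicate 7, 2338 without acute replicate 8 and 2191 without control replicate 2. It was 618 without slide 5, and 1580 without acute replicate 14, whose sex label goes against its Xist. Differences in males exceeded those in females for Myo6, a myosin that moves toward the minus end of actin, at 0.36 in males and -0.10 in females, for Prkce, a protein kinase C, at 0.32 and -0.56 in that order, and for Ecm1, a secreted matrix protein, at 0.23 and -0.42. The reverse held for Arhgef4, a guanine nucleotide exchange factor, at -0.27 in males and 0.45 in females, for Litaf, an endosomal protein, at -0.16 and 0.27, and for the myeloid receptor Cd33, at -0.64 and 0.36. Each had an interaction adjusted p of 0.602.

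Neutrophil genes gave the widest split by sex among the lists, with a median over 9 members of -0.58 log2 in males alone and 0.80 in females alone, against -0.086 in both sexes. S100a8, a calcium-binding protein that fills the neutrophil cytosol, differed by -1.15 in males and 0.80 in females, and Retnlg, a resistin-like protein of neutrophils, by -1.22 and 1.03. Neither interaction was called (adjusted p = 0.602 for both, limma). Over both sexes S100a8 spanned 9.16 to 13.75 (median 11.17) in acute lungs, against 8.52 to 13.16 (median 11.13) in control lungs, so neutrophil genes varied widely between lungs of either group.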

How the data were processed

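The authors deposited, per the file headers, a table of non-normalized bead signal intensity with a detection p-value for each probe and array, and a table of processed values on a log2 scale. The slope of that log2 table against the values used here was 1.15, and no source used here names its software. Arrays were put in groups by the exposure named in their labels, and slides were read from the array titles. Signals of the 28 arrays were corrected with limma 3.58.1 (nec, background from the detection p-values, offset 16), quantile normalized and put on a log2 scale in R 4.3.3. The fit had group, sex and slide, with eBayes and a variance trend, and Benjamini-Hochberg adjustment over 17182 probes. Probes were named from GEO's platform annotation: 34885 of 45281 had 1 gene symbol, 18 had several and 10378 had none. In lists, a gene is its tested probe of highest mean signal, and no set test was made. The text names the 10 genes of smallest p and the 5 of largest difference in each direction, leading members of lists, the 3 leading interaction genes in each direction and a few fixed genes; Isg15, Irf7, Ifit2, Ifit3, Rsad2, H2-D1, B2m, Dusp6, Ndrg1 and Epas1 were added after their values were seen. The members and lists were chosen with earlier results of these data known. The fitting was tested on simulated data. The number of arrays limits the precision, and p-values measure the spread between these mice. A fixed gene is not reported here.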

Additional observations from a re-analysis of the deposited data

How the results depend on the processing

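Under 51 alternatives for the group comparison and 43 for the interaction, limma called 0 probes each time, and the smallest adjusted p was 0.103 for the group and 0.164 for the interaction. The count at unadjusted p under 0.05, 737 as reported, was 458 with slide left out, 394 with all 42 arrays in 1 fit and 2027 with all probes tested; it ran from 606 to 911 when 1 array was left out and from 530 to 1065 when 1 slide was. Probes with an interval within 1.5-fold, 16568 as reported, numbered 44448 with all probes tested, which adds probes at background, and 16452 to 16610 when 1 array was left out. For the interaction the count at unadjusted p under 0.05 was 889 with slide left out, 616 with all 42 arrays and 2879 with all probes, and 874, 2883 and 618 without slides 2, 4 and 5. Of 42 named values 33 kept their sign throughout. All 33 had been named for a small p or a large difference in these same arrays, so the count says little about stability. The genes named whatever their values, Cdkn1a, Mdm2, Sftpc, Scgb1a1, Pecam1 and Col1a1, each changed sign under some alternative. On slides 3 to 5 alone Cyp26b1 was -0.22, the 2 Dlk1 probes 0.022 and 0.11, Cdkn1a -0.085 and Scgb1a1 -0.0018. In females alone the Dlk1 probes were 0.43 and 0.37 and Col1a1 0.053, and in males alone Cdkn1a was -0.17 and Pecam1 0.043. Sftpc was 0.049 under median scaling and 0.037 on slides 1, 2, 6 and 7. Mdm2 was 0.0042 with each slide and sex combination as a block, 0.0013 with all 42 arrays, 0.073 under median scaling, 0.000214 without background correction, 1.84e-05 with an offset of 50, 0.14 on slides 1, 2, 6 and 7 and 0.016 in males alone. With arrays or slides left out Mdm2 ran from -0.047 to 0.055, Cdkn1a from -0.11 to 0.29 and Col1a1 from -0.17 to 0.017. Of 47 list medians 43 moved by less than 1 SD between lungs under every alternative; the exceptions were neutrophils, EGF receptor family, respiratory chain complexes II to V and ribosomal proteins. The causes were not tested. No paired analysis was possible because the labels carry no replicate numbers, that is, none by replicate number. A matched fit was made with each combination of slide and sex as a block, and it gave 0 calls and 723 probes at an unadjusted p under 0.05.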

Other observations

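Of the 42 probes with an estimate past 1.5-fold, 31 had no gene symbol and all 31 were lower in acute lungs, with a median difference of -0.71 log2 and a smallest adjusted p of 0.9999 (limma). Averaged over these probes, which were chosen by their values, signal ran from -1.82 to 1.56 (median -0.41) around the mean over lungs in acute lungs, against -1.81 to 1.70 (median 0.38) in control lungs. The other 10 lower probes were of Adcyap1, Gkn2, Cd177, Cyp2e1, Hamp, Dlk1, Car3 and Adipoq. Cd177, a surface protein of neutrophils, had probes at -0.80 ± 0.39 and -0.69 ± 0.39 log2, and Adcyap1, a neuropeptide, one at -0.60 ± 0.27.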
